A study of Oryza sativa with 2 samples.

Results

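The brassinosteroid core of the rice collar was followed on a pair of arrays through 9 genes, which stand for the successive levels of the pathway: the synthesis genes CYP724B1, OsCPD2 and OsCYP85A1, the inactivation gene CYP734A6, the receptor kinase genes OsBRI1 and OsBAK1, the kinase genes GSK1 and OsGSK4, and the transcription factor gene OsBZR1. Every probe set that the annotation of the array ties to one of these names, as symbol or synonym, was taken, which gave 10 probe sets out of 57194 that are not controls. The genes are 9 of 17905 to which the annotation assigns at least 1 probe set.

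The collars came from field-grown plants at the heading stage, from an antisense OsLIC line and from the wild type. In the antisense plants the full-length cDNA of OsLIC, a gene for a CCCH-type zinc finger protein, is carried in reverse orientation behind the maize ubiquitin1 promoter, which is active in most tissues, and the array took a single transgenic line, line 2. Each array took RNA of 30 collars, 1 from each plant, and there was 1 array per group, so that plant-to-plant spread was averaged within the pool and cannot be measured. No difference has a replicate check and no test of a difference was made. The collar, or lamina joint, is the tissue between leaf sheath and leaf blade that sets the angle of the leaf.

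Brassinosteroids are plant steroid hormones, and in rice they bend the lamina joint: plants that lack the hormone or its receptor hold their leaves erect. The hormone binds the receptor kinase BRI1 at the cell surface, which acts together with the co-receptor BAK1, and the signal turns off GSK3-like kinases that otherwise phosphorylate the BZR1 type of transcription factor. Free of these kinases, BZR1 enters the nucleus and is known, in Arabidopsis and rice, to lower the transcripts of several synthesis genes. Since the signal runs through phosphorylation, the transcript levels measured here do not read the activity of the pathway itself.

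None of the 9 core genes reached a 2-fold difference between the array labelled antisense OsLIC and the array labelled wild type. Values are linear signals of the Affymetrix GeneChip Operating Software (GCOS), which the authors scaled to an overall intensity of 500 on each array, and log2 ratios are antisense OsLIC over wild type, with signals under 20 set to 20. Ratios were counted for probe sets whose brighter signal was 100 or more, which held for 9 of the 10, with 1 for each gene. Of these 9, 0 were at least 2-fold higher and 0 at least 2-fold lower on the array labelled antisense OsLIC, against 5.28% higher and 4.64% lower among all 26697 probe sets past the minimum, 9.91% in both directions together. A share of that size corresponds to less than 1 probe set among 9, so that a count of 0 does not set the core genes apart. Their log2 ratios ran between -0.46 and 0.41, 4 above 0 and 5 below, with a median of -0.11, against a median of -0.01 over all probe sets past the minimum. The median absolute log2 ratio was 0.26 for the core genes and 0.28 for all probe sets.

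**Figure D1:**
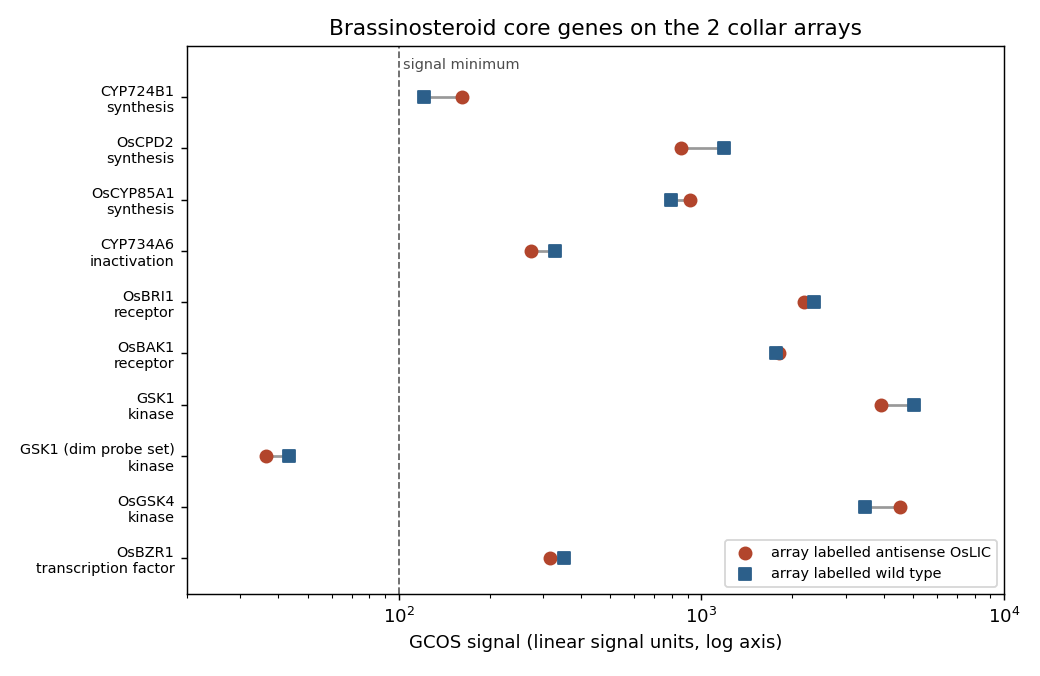
Signal of each probe set of the 9 core genes on the array labelled antisense OsLIC (circles) and the array labelled wild type (squares), in GCOS signal units on a log axis, ordered by the level of the pathway. Each symbol is 1 array. The symbols of a gene lie close together, and the dim second probe set of GSK1 (36.3 and 43.5) is the only one left of the signal minimum of 100.

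OsLIC, the targeted gene, had the higher signal under the antisense OsLIC label. Its probe set (AK107008) gave 2069 under the antisense OsLIC label and 219.8 under the wild type label, 9.41-fold higher (log2 ratio 3.23). Which strand these probes read was not checked, and an antisense transcript of the construct and the plant's own transcript cannot be told apart here. Directions are therefore those of the array labels. The collar itself was marked by OsLG1, the liguleless gene that the ligule and lamina joint need, with signals of 641 and 494 on the antisense OsLIC and wild type arrays (log2 ratio 0.38). Of 11 floral-organ MADS-box genes, 8 stayed under 100 on both arrays. Of the 3 others, OsMADS16 had signals of 1179 and 1001, while OsMADS2, with 30.5 and 155, and OsMADS17, with 75.1 and 121, were lower on the array labelled antisense OsLIC. The list summed to 1512 and 1528, and without OsMADS16 to 333 and 527. Of 6 probe sets for 4 meristem homeobox genes, 2 passed the minimum, 1 of OSH43 (169 and 133) and that of OSH71 (218 and 310.3). The list summed to 499.7 and 518, and OSH1, the classical marker of the shoot meristem, was under the minimum in both of its probe sets. Among leaf blade transcripts, those of chlorophyll a/b-binding proteins did differ, with summed signals of 19820 against 45913 for 3 probe sets. All of them were lower on the array labelled antisense OsLIC, and 2 of them read the same gene. For the small subunit of Rubisco, 5 probe sets summed to 29898 and 19608, and of the 3 past the minimum 2 were higher and 1 lower. These 3 are annotated to the same gene and disagreed, with log2 ratios of 0.79, 0.60 and -0.39. The sum thus counts that gene more than once. Whether the share of leaf blade tissue has a part in the ratios of the core genes was not tested, and in bulk RNA fewer cells of a type and less RNA per cell cannot be told apart.

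The median signal over the whole array was 69.7 under the antisense OsLIC label and 67.2 under the wild type label. The scaling of the arrays bears on every direction given here. The poly-A control transcripts, added to the RNA before labelling, had a median ratio of 0.668 over 36 probe sets, and scaling to them would add 0.58 to every log2 ratio and move the median of all probe sets to 0.57. For 27 probe sets of the controls that enter only at hybridisation, the median ratio was 1.11. Higher and lower are therefore used relative to the bulk of transcripts on each array.

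CYP724B1 (LOC4336116), also named D11 in the annotation, encodes a cytochrome P450 that hydroxylates the steroid side chain early in the pathway, and plants without it are dwarfs. Its signal was 161 on the array labelled antisense OsLIC and 122 on the array labelled wild type, 1.33-fold higher (log2 ratio 0.41). The probe set carries the suffix _x_at of probe sets that may also bind related transcripts, and both values lie close above the minimum. OsCPD2 (LOC4351461), or CYP90A4, belongs to the P450 subfamily of Arabidopsis CPD, another enzyme of the pathway. It had signals of 859.7 and 1185, which was 1.38-fold lower on the array labelled antisense OsLIC (log2 ratio -0.46) and the value farthest from 0 among the core genes. OsCYP85A1 (LOC4333399), or OsDWARF, is the C-6 oxidase of the last steps, which make castasterone, the main active brassinosteroid of rice. Its signals were 916 and 792, 1.16-fold higher (log2 ratio 0.21). With the scaling as deposited, the synthesis genes thus lay on both sides of 0, the early and the late enzyme above and the CPD-type enzyme below. With the poly-A scaling all of them lay above 0, at 0.99 for CYP724B1, 0.79 for OsCYP85A1 and 0.12 for OsCPD2. The log2 ratios of CYP724B1 and OsCPD2 lay 0.87 apart and those of OsCYP85A1 and OsCPD2 0.67 apart.

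CYP734A6 (LOC4325222), which stands for inactivation, is of the P450 family that hydroxylates active brassinosteroids and so removes them. Its signals were 274 on the array labelled antisense OsLIC and 327 on the array labelled wild type, 1.20-fold lower (log2 ratio -0.26). A second gene of the family, CYP734A4, was under the minimum, with 17.5 and 89.7. It was dim on both arrays, and the signal under the antisense OsLIC label lay under the floor.

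OsBRI1 (LOC4324691), the receptor whose loss in the d61 mutants gives erect leaves, had signals of 2176 on the array labelled antisense OsLIC and 2348 on the array labelled wild type (log2 ratio -0.11, 1.08-fold). OsBAK1 (LOC4344785), its co-receptor, which the annotation also names OsSERK1, had 1811 and 1759 (log2 ratio 0.04, 1.03-fold). The receptor pair held the values closest to 0 of the core. Of all probe sets past the minimum, 77.7% lay at least as far from 0 as OsBRI1, and 91.3% at least as far as OsBAK1. The related gene OsBAK1-7, chosen for this text after its values were seen, had 381 and 317 (log2 ratio 0.27), and BRL1, of the close relatives of BRI1, stayed under the minimum with 39.2 and 16.2.

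GSK1 (LOC4337722) and OsGSK4 belong by name to the GSK3/SHAGGY-like kinases, the brake of the pathway. The bright probe set of GSK1 had signals of 3908 on the array labelled antisense OsLIC and 5042 on the array labelled wild type, 1.29-fold lower (log2 ratio -0.37). OsGSK4 had 4532 and 3486, 1.30-fold higher (log2 ratio 0.38). With the scaling as deposited, the kinase genes thus lay on opposite sides of 0, and their log2 ratios were 0.75 apart. With the poly-A scaling both lay above 0, at 0.96 for OsGSK4 and 0.22 for the bright probe set of GSK1. GSK2, the family member best known in rice for holding back brassinosteroid signalling and not one of the 9, had 1871 and 1592 (log2 ratio 0.23). The GSK1 probe set is again of the suffix _x_at, and members of this family are similar in sequence. Whether it also reads a relative was not tested.

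OsBZR1 (LOC4343719), the transcription factor at the end of the chain, had signals of 316 on the array labelled antisense OsLIC and 351 on the array labelled wild type (log2 ratio -0.15, 1.11-fold lower). Its relatives OsBZR2 and OsBZR3 had 2802 and 2324 (log2 ratio 0.27) and 857 and 1042 (log2 ratio -0.28). As among the kinases, the genes of this family lay on both sides of 0 with the scaling as deposited.

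**Figure D2:**
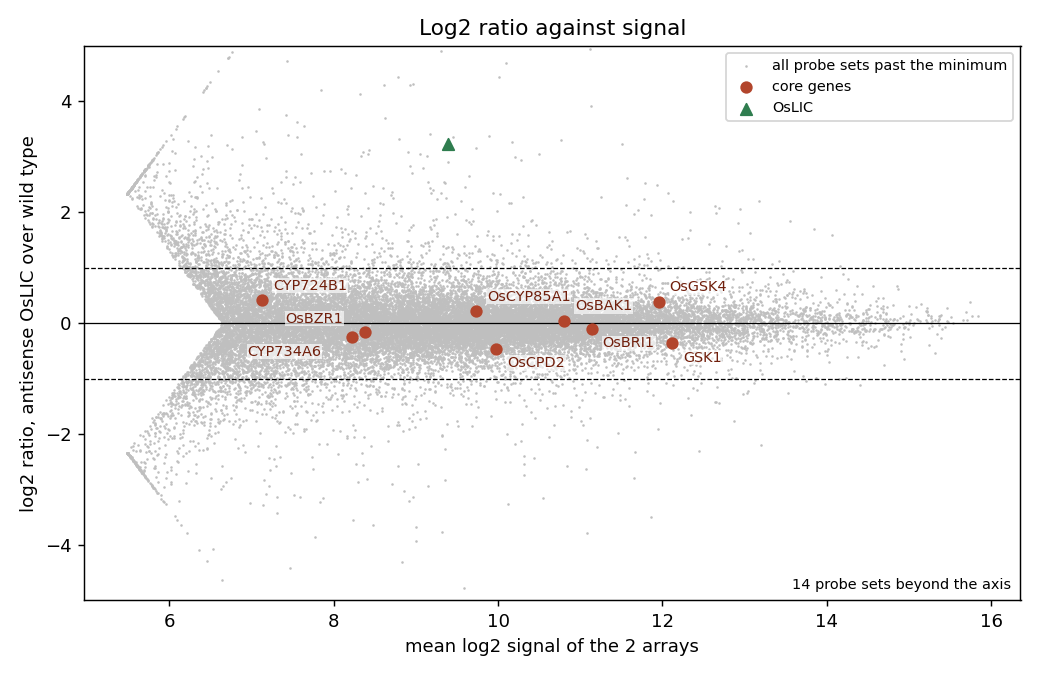
Log2 ratio, antisense OsLIC over wild type, against the mean log2 signal of the 2 arrays, for all 26697 probe sets past the minimum (grey, 14 beyond the axis), the core genes (circles) and OsLIC (triangle). Dashed lines mark 2-fold, and all core genes lie between them, while OsLIC lies at 3.23.

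How far a ratio strays from 0 depended on the signal. Among probe sets with a geometric mean signal of 100 to 300, the 10th and 90th percentiles of the log2 ratio were -0.76 and 0.76, and CYP724B1 and CYP734A6 lay within these bounds. Between 300 and 1000 the bounds were -0.55 and 0.53, and OsCYP85A1 and OsBZR1 lay within them. Between 1000 and 3000 they were -0.42 and 0.41, with OsBRI1 and OsBAK1 within and OsCPD2, at -0.46, below. From 3000 upward they were -0.37 and 0.38, so that GSK1 and OsGSK4, with values of the same size, lay on the lower and the upper bound to the second decimal. The 2172 probe sets past the minimum with a geometric mean under 100 belong to none of these ranges. Over all signals together, 30.8% of probe sets lay at least as far from 0 as OsCPD2, 38.2% as far as OsGSK4 and 39.4% as far as GSK1.

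At a limit of 1.25-fold, chosen after the data were seen, 2 of the 9 probe sets were higher (CYP724B1 and OsGSK4) and 2 lower (OsCPD2 and GSK1) on the array labelled antisense OsLIC. Among all probe sets past the minimum, 21.7% were higher and 22.6% lower by this limit, 44.2% together, and 4 of 9 core probe sets is a share near this background. At 1.5-fold the core counts were 0 and 0, against 11.8% higher and 11.3% lower among all, 23.2% together.

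The directions of the core genes did not turn under 5 other ways of treating the same signals. Of these, only quantile normalization and an intensity-dependent loess could have turned a direction. A pseudocount, a higher floor and median centring could not have done so here, and they add no check of direction. With the poly-A scaling all 9 log2 ratios were above 0, from 0.12 for OsCPD2 to 0.99 for CYP724B1, since that scaling moves every probe set of the array by the same amount.

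**Figure D3:**
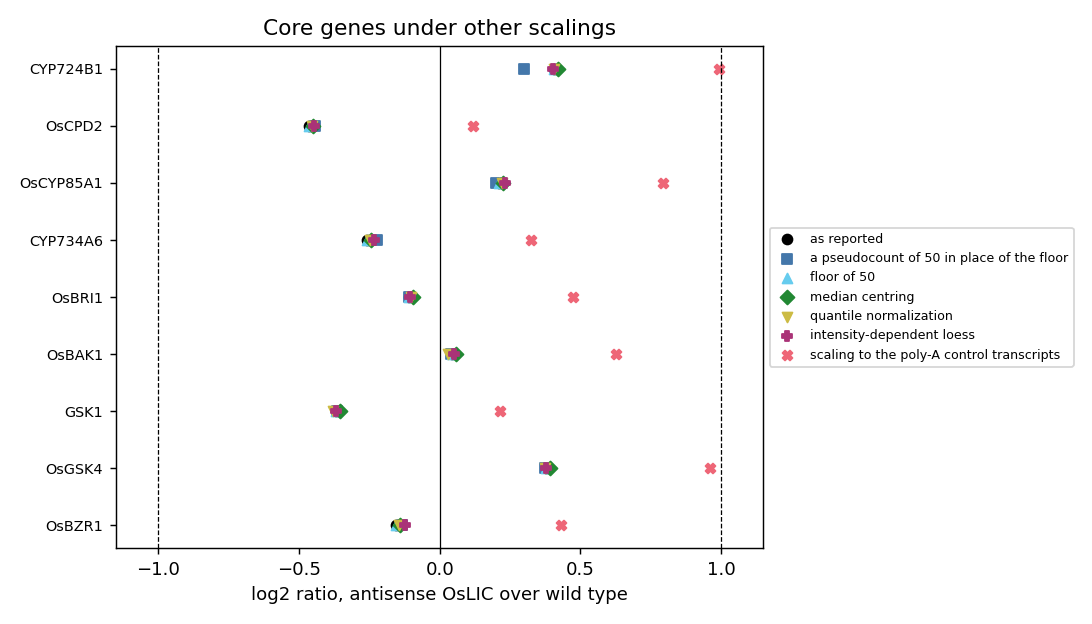
Log2 ratio, antisense OsLIC over wild type, of the core probe sets past the minimum as reported (black circles), under 5 alternative treatments and with scaling to the poly-A control transcripts. Dashed lines mark 2-fold, the alternatives lie close to the reported value, and the poly-A scaling sits 0.58 to the right for every gene without passing 2-fold.

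With 1 array per group, probe sets of the same gene give the one spread that can be measured. They read the same RNA on the same arrays, so this spread leaves out variation between plants, pools and arrays. GSK1 was the only core gene with more than 1 probe set. Its second one (AK064884) had signals of 36.3 on the array labelled antisense OsLIC and 43.5 on the array labelled wild type, both under the minimum, with a log2 ratio of -0.26. It had the same sign as the bright one and lay 0.11 from it. This closeness carries little, since over 1066 genes with a bright probe set and a second one between the floor and the minimum, the signs were the same in 52.3% and the median difference between the log2 ratios was 0.67. For the other 8 core genes, agreement between probe sets could not be examined.

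Where the brightest and the second probe set of a gene both passed the minimum, as for 2166 genes of the array, their log2 ratios differed by a median of 0.23, and for 10% of genes by more than 0.85. Among the 1770 of these whose brightest probe set lay within 0.5 of 0, as all core genes did, the sign was the same in 64.6%. Lying that close to 0 was common, with 71.9% of all probe sets past the minimum within 0.5 of it. Of the core genes, OsBRI1, OsBAK1, OsCYP85A1 and OsBZR1 had log2 ratios smaller in size than the median difference of 0.23. That difference is one between probe sets, and a ratio larger than it is not thereby set apart from variation between arrays. Probe sets of 1 gene lay at least as far apart as OsGSK4 and GSK1 in 12.1% of the 2166 genes and in 8.70% of the 1770. Those genes include signals down to the minimum of 100, while both kinase probe sets lie above 3000, where ratios spread less. A comparison at like signal was not made. They lay at least as far apart as CYP724B1 and OsCPD2 in 9.14% of the 2166 and in 6.10% of the 1770. CYP724B1 and OsCPD2 hold the highest and the lowest of the core ratios, and OsGSK4 and GSK1 the next highest and next lowest. These shares therefore do not measure how unusual either gap is. For the other pairs compared, the share of the 2166 was 14.7% for OsCYP85A1 and OsCPD2 and 56.6% for CYP724B1 and OsCYP85A1. It was 65.3% for OsBAK1 and OsBRI1.

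The rest of the pathway was read from a list of 48 further genes, of which 25 were matched by name, with 27 probe sets, 22 of them past the minimum. Among those without a matched name are several synthesis genes, such as CYP90D2 and CYP90B2, which were not analysed here. Of the 22 probe sets, 1 was at least 2-fold higher, that of OsLIC, and 0 were at least 2-fold lower, against 5.28% and 4.64% of all. The median log2 ratio of the 22 was -0.07, with 10 above 0 and 12 below. OsMADS47, of the MADS-box proteins that act in the brassinosteroid response, had the next highest value, with signals of 942 on the array labelled antisense OsLIC and 593 on the array labelled wild type (log2 ratio 0.67). Its relatives OsMADS55 and OsMADS22 had log2 ratios of -0.33 and 0.07. OsBU1 and OsIBH1, a pair of helix-loop-helix proteins with opposite effects on the bending of the lamina joint, had log2 ratios of -0.04 and -0.15. A dim second probe set of OsIBH1 had 9.12 and 55.6. The G protein subunit gene RGA1 had a log2 ratio of 0.09, the ubiquitin ligase gene TUD1 one of -0.21 and BSL1, named as a relative of the phosphatase BSU1 of Arabidopsis, one of -0.21.

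The 14-3-3 proteins, which hold phosphorylated BZR1 in the cytoplasm, are represented by 7 genes. Of these, 5 lay below 0 and 2 above, with a median of -0.21 and none past 2-fold. Among all 26697 probe sets past the minimum, 13743 lay below 0 and 12954 above, and 9.91% were past 2-fold. With the poly-A scaling 6 of the 7 genes lay above 0 and 1 below. GF14G had signals of 340.5 on the array labelled antisense OsLIC and 565 on the array labelled wild type (log2 ratio -0.73, 1.66-fold lower), GF14C had 6991 and 9800.3 (log2 ratio -0.49) and GF14D 3772 and 5139 (log2 ratio -0.45). GF14E followed with a log2 ratio of -0.21. GF14B, at 0.18, and GF14F, at 0.11, were the ones above 0. These genes serve many other pathways as well.

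Sterols are the precursors from which brassinosteroids are made. Smt1-1, by name a sterol methyltransferase gene, had signals of 4607 on the array labelled antisense OsLIC and 3752 on the array labelled wild type (log2 ratio 0.30), and HMG3, a gene of HMG-CoA reductase in the mevalonate route, had 381 and 308 (log2 ratio 0.31). Smt2-1, which the annotation also names as an arsenic methyltransferase, had a log2 ratio of -0.10. HMG1 stayed under the minimum with 28.5 and 58.2. None of the 3 measured genes was past 2-fold, against 9.91% of all probe sets past the minimum.

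**Figure D4:**
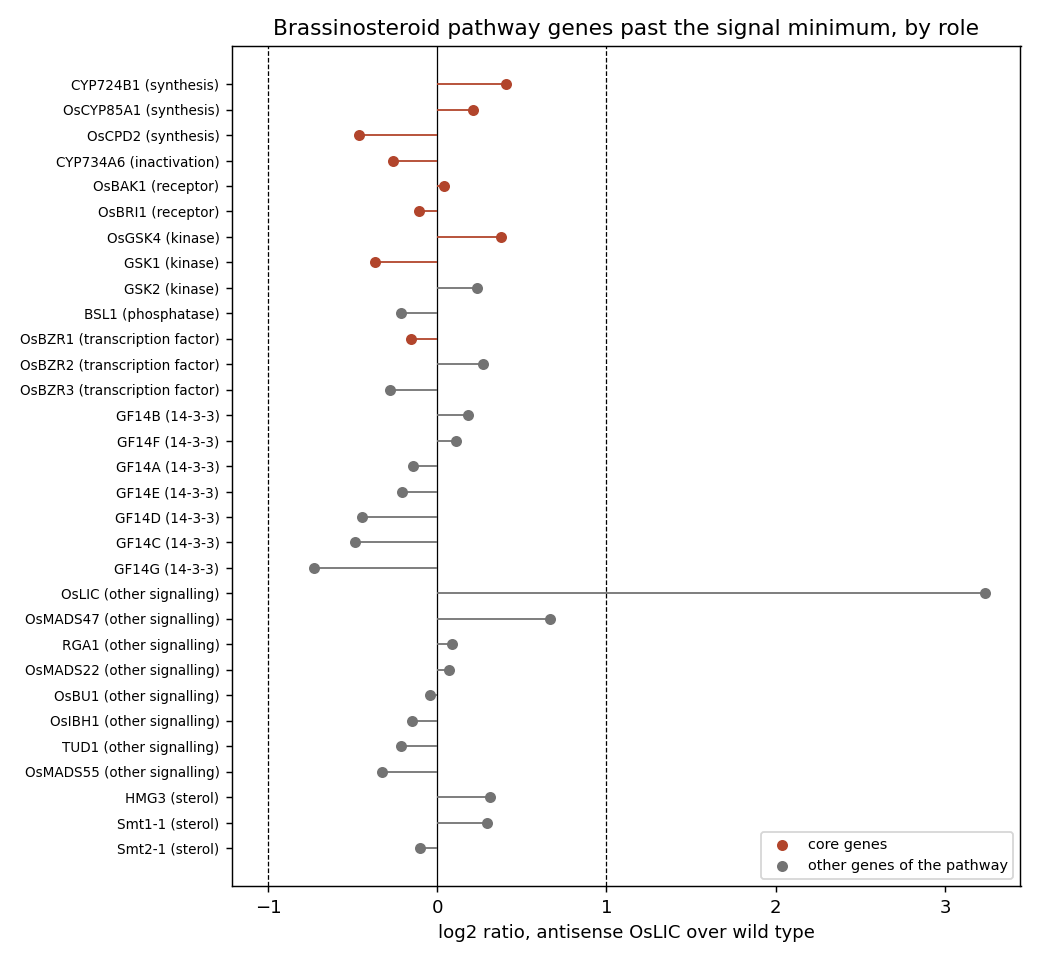
Log2 ratio, antisense OsLIC over wild type, of every probe set of the pathway past the signal minimum, 9 of the core genes (red) and 22 of other pathway genes (grey), grouped by role. Each point is a single pair of signals with no error bar, dashed lines mark 2-fold, and OsLIC is the one gene beyond them.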

How the data were processed

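Labelled RNA from developing collars was read on Affymetrix GeneChip Rice Genome Arrays, with 1 for each group. The deposited values are linear signal intensities, 1 for each of 57381 probe sets, which the authors computed with GCOS (version not given in the sources used here) and scaled to an overall intensity of 500; 187 control and reporter probe sets were left out. The number of arrays limits the precision.

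Signals under 20 were set to 20 and log2 ratios taken in Python 3.11.15 with pandas 2.3.3, without further normalization. Probe sets with 1 annotated gene (22436) were named through the annotation of the array and RefSeq synonyms; 95 with several genes and 34850 with none name no gene here. The names OsSK1, OsSK2 and OsSK3 were taken as shikimate kinases and left out of the kinase list. All 9 core genes are named, with every probe set, and of the other pathway genes those past 2-fold and up to 4 a role with the largest log2 ratios; other genes named were chosen after their values were seen. The core genes and lists were chosen with earlier results of these data known. The alternatives were other floors, a pseudocount, scalings, minimums, thresholds and probe set choices. The code was tested on simulated data.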

Additional observations from a re-analysis of the deposited data

How the results depend on the processing

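No paired analysis was possible because each group has 1 array. Under 5 alternatives (a pseudocount of 50, a floor of 50, median centring, quantile normalization and an intensity-dependent loess with a fraction of 0.4) none of the 9 core probe sets past the minimum changed the sign of its log2 ratio. The pseudocount, the floor and median centring could not have changed a sign here, so these add no check of direction. The widest range was that of CYP724B1, 0.30 to 0.42. The dim probe set of GSK1 ran between -0.44 and 0.00. The median log2 ratio of the core genes stayed between -0.13 and -0.03 over 13 alternatives, and the counts past 2-fold stayed at 0. These added signal minimums, a set free of _x_at and _s_at probe sets and 1 value a gene. A minimum of 50, a minimum of 100 on both arrays and 1 value a gene kept the same 9 ratios. The median could not move under them, so they add no check. Leaving probe sets out could not raise the counts either, since none of the 9 was past 2-fold.

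Scaling to the poly-A control transcripts, chosen after the data were seen, moved the median of the core genes to 0.47 and put all 9 above 0, from 0.12 for OsCPD2 to 0.99 for CYP724B1. It moved all probe sets alike, so that 17.3% were then at least 2-fold higher and 1.90% at least 2-fold lower, and relative to the median of all probe sets OsCPD2 stayed at -0.45 and CYP724B1 at 0.42. Of the 22 probe sets of other pathway genes 2 were then at least 2-fold higher, those of OsLIC and OsMADS47 (1.25). With the scaling as deposited, 3 of 25 probe sets of other pathway genes were at least 2-fold lower with a minimum of 50, against 9.20% of all 35939, and 3 of 27 with none, against 7.39% of all 57194. They were those of CYP734A4 (-2.17), OsIBH1 (-1.47, by its dim probe set) and HMG1 (-1.03), all with signals under 100. At 1.5-fold 2 of the 22 were higher and 1 lower, against 11.8% and 11.3% of all 26697 past the minimum of 100. At 1.25-fold 2 of the 22 were higher and 4 lower, against 21.7% and 22.6% of all. Without OsLIC 0 were at least 2-fold higher. Of the 9 core probe sets, 2 were higher and 2 lower at 1.25-fold, against the same 21.7% and 22.6%. With _x_at and _s_at probe sets left out, 7 core probe sets were left.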
